A study of Mus musculus with 9 samples.

Results

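The change within hypoxia was taken as the difference between mouse plantaris muscle after 6 h and after 2 h of breathing 8% oxygen. The 3 libraries of each exposure time were compared directly, so 6 of the 9 libraries of the series entered and its control libraries did not. Every gene with a mean level of at least 0.5 RPKM (reads scaled to exon length and library size) over the 6 libraries was a member, which gave 13260 of the 13722 genes in the table. Both groups were 3-month-old male C57BL/6J mice without a transgene or drug. The animals were killed by cervical dislocation while still breathing 8% oxygen, and the whole plantaris, a fast muscle of the calf, was used for RNA. The labels leave it unsaid whether each library is a separate mouse. The p-values therefore cover the variation among these libraries, which may be technical. Exposure time cannot be told apart from clock time or handling over the same hours.

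Oxygen shortage stabilises hypoxia-inducible factors, which switch on genes of glycolysis, blood vessel growth and iron uptake. It also acts as a stress on the whole animal, with adrenal glucocorticoids and catecholamines acting on muscle through their receptors. Skeletal muscle answers such signals through genes of fuel choice, protein breakdown, metal binding and RNA processing, some of which respond within an hour and decline again while others build up slowly.

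Fast fibre markers, those of the labelled muscle, were high throughout. The summed RPKM of the 15 fast fibre genes lay between 127600 and 148800 in all 6 libraries. The reads recovered from the RPKM steps numbered 116007585 to 137101622 per library at 2 h and 72703027 to 114484633 at 6 h, with 6 h replicate 3 the shallowest. No pair of the 6 libraries agreed within counting noise. Single libraries stood apart in genes of other cell types. At 6 h, replicate 2 had a summed RPKM of 1405 over 24 fibroblast and matrix genes against 363.1 to 643.5 in the other 5 libraries, and of 522.9 over 18 macrophage genes against 97.08 to 118.8. The 12 slow fibre genes summed to 6188 in 6 h replicate 3, to 1290 and 1590 in the other 6 h libraries and to between 771.5 and 922.6 at 2 h. Nerve and Schwann cell genes summed to 676.9 in 6 h replicate 1 and to between 57.12 and 89.87 elsewhere. At 2 h, replicate 1 had the lowest sum of 5 erythroid genes (434.5) and the highest of 5 neutrophil genes (36.23), and replicate 2 held 1494 RPKM of Ttr, the thyroxine carrier made by liver and choroid plexus. The part of these library differences in each result below was not tested. In whole muscle, fewer cells of a type and less RNA per cell cannot be told apart.

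**Figure D1:**
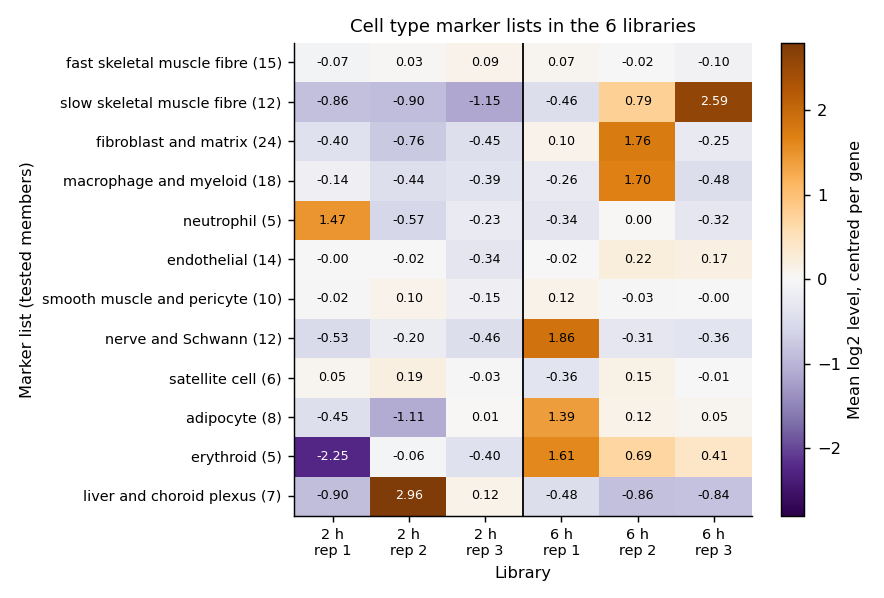
Mean level of each cell type marker list except the lymphocyte list in the 6 libraries. Values are log2(RPKM + 0.5) centred per gene over the 6 libraries and averaged over the tested members (number in brackets). Replicate 2 at 6 h stands out for matrix (1.76) and macrophage genes (1.70). Replicate 3 at 6 h does so for slow fibre genes (2.59) and replicate 1 at 6 h for nerve genes (1.86). At 2 h, replicate 2 does so for liver and choroid plexus genes (2.96) and replicate 1 for erythroid (-2.25) and neutrophil genes (1.47).

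Between 2 h and 6 h, 3 of the 13260 genes passed the threshold of limma, a linear model with pooled variance, at an adjusted p under 0.05 (0.0226%). They were the noncoding RNA Neat1 and the gene D4Wsu53e, which fell, and 6430548M08Rik, which rose, so 1 gene rose (0.00754%) and 2 fell (0.0151%). Below this threshold the measured differences were wider. An unadjusted p under 0.05 was reached by 1223 genes with the higher level at 6 h (9.22%) and 717 with the lower (5.41%). The 3 libraries at 6 h lay wholly above those at 2 h for 1811 genes (13.7%) and wholly below for 1193 (9%). Fitted differences of at least 2-fold were found for 172 genes towards higher levels at 6 h (1.3%) and for 38 towards lower levels (0.287%). The median log2 difference of all genes was 0.046. On recovered reads, edgeR called 2 genes (0.0151%), Neat1 and D4Wsu53e, whereas DESeq2 called 699 (5.27%), of which 391 were higher at 6 h. All 3 genes called by limma were among those 699.

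**Figure D2:**
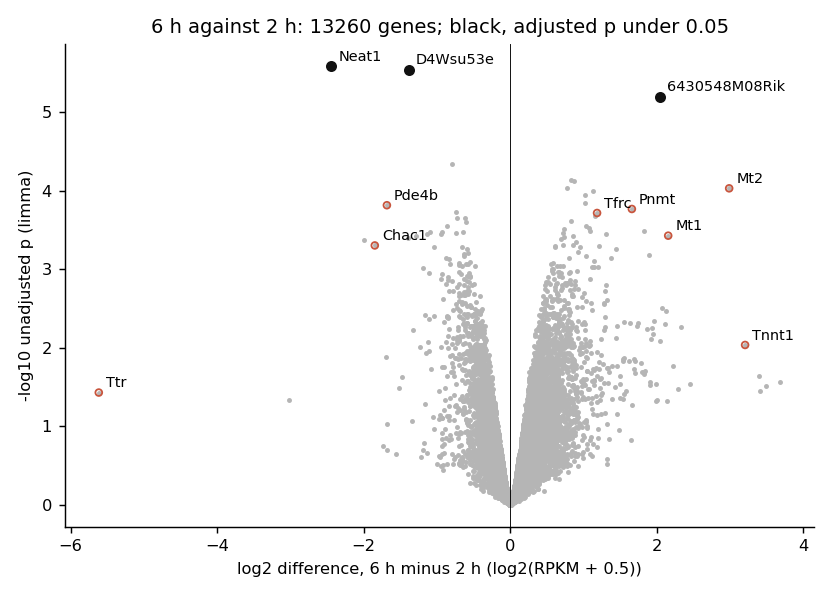
Log2 difference on the log2(RPKM + 0.5) scale (6 h minus 2 h) against the -log10 unadjusted p of limma for all 13260 genes. The 3 black points are the genes past the adjusted threshold, and red rings mark genes described in the text that did not pass it; Ttr, at the far left, rests on replicate 2 at 2 h with 1494 RPKM.

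Neat1 is the long noncoding RNA that scaffolds paraspeckles, nuclear bodies that retain edited RNAs and splicing proteins. It lies on the minus strand of chromosome 19 (5824708 to 5845480, mm9). Its level was 154, 128 and 95.7 RPKM in the 2 h libraries and 25.6, 20.9 and 20.5 RPKM in the 6 h libraries. The groups did not overlap, and the lowest 2 h library held several times the level of the highest 6 h library. Neat1 fell by 2.45 ± 0.19 on the log2 scale (SE, n = 3 libraries per group, limma adjusted p = 0.019), from 126 ± 29.3 to 22.3 ± 2.79 RPKM (SD). The 10 other members of the list of nuclear noncoding RNA and paraspeckle genes did not pass the test. Of these, Meg3, an imprinted noncoding RNA that overlaps Gm17639 and a miRNA, had the smallest p and stood at 2.4, 2.08 and 2.33 RPKM at 2 h and 4.09, 4.21 and 3.14 RPKM at 6 h, without overlap.

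D4Wsu53e is the older name of Rsrp1, a protein rich in arginine and serine, the composition of splicing regulators. The gene lies on the plus strand of chromosome 4 (134479507 to 134483586, mm9). Its level was 57.1, 56.5 and 52.3 RPKM at 2 h and 22.5, 21.2 and 18.8 RPKM at 6 h. Within each time the libraries were close together, and the times were well apart. Rsrp1 fell by 1.39 ± 0.11 on the log2 scale (limma adjusted p = 0.019), a ratio of means of 2.65 between 2 h and 6 h.

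6430548M08Rik, a protein-coding gene on the plus strand of chromosome 8 (122638052 to 122689206, mm9), moved the other way. It stood at 4.38, 7.45 and 5.32 RPKM at 2 h and at 23.7, 25.8 and 24.3 RPKM at 6 h. Every 6 h library lay above every 2 h library, and the 6 h libraries were nearly level with each other. The gene rose by 2.04 ± 0.18 on the log2 scale (limma adjusted p = 0.0279), a ratio of means of 4.3. It overlaps Gm20388 on the same strand, so reads may be shared between them. Gm20388 itself stood at 27.2, 23.2 and 19.1 RPKM at 2 h and 20.4, 23.5 and 17.6 RPKM at 6 h, with overlapping groups.

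All 3 calls were sensitive to the number of libraries but not in direction. With each library left out in turn, the log2 difference stayed between -2.63 and -2.29 for Neat1, between -1.44 and -1.32 for Rsrp1 and between 1.88 and 2.23 for 6430548M08Rik. The adjusted p by limma then lay between 0.0497 and 0.209 for Neat1, which passed only without 2 h replicate 3. It lay between 0.0587 and 0.209 for Rsrp1, which passed in none of these fits, and between 0.0347 and 0.27 for 6430548M08Rik, which passed only without 2 h replicate 2.

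**Figure D3:**
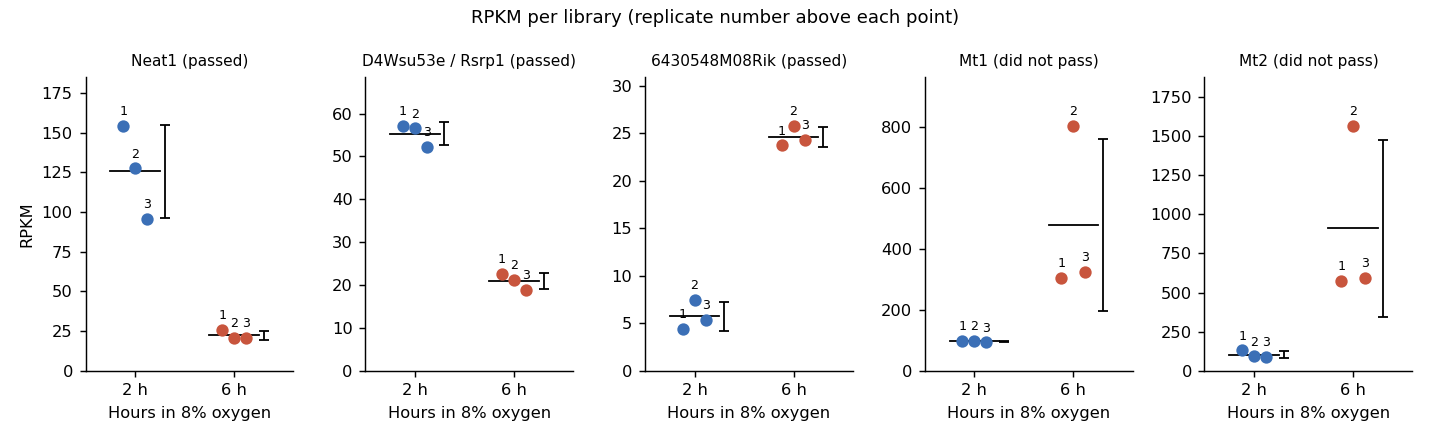
RPKM of the 3 genes that passed the test and of the metallothioneins Mt1 and Mt2, which did not, in each library (points, replicate number above), with the group mean (line) and SD (bar, n = 3). The groups do not overlap in any panel, and for Mt1 and Mt2 replicate 2 at 6 h lies far above the other 6 h libraries.

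The promoters of the protein-coding genes that passed and of the metallothionein pair Mt1 and Mt2 are shown because the first set carries the calls and the pair stood together at several times its 2 h level. Each runs 5′ to 3′ from 250 bases before to 50 bases after the gene's start in RefSeq on build GRCm38.p6, on the plus strand, at chr8:94178839-94179138 for Mt1, chr8:94172368-94172667 for Mt2, chr4:134923375-134923674 for Rsrp1 and chr8:120113902-120114201 for the first of 2 windows of 6430548M08Rik. Capitals mark TGCACNC or TGCGCNC, the metal response element bound by MTF1, in Mt1 and Mt2. In Rsrp1 they mark TGACG, the core of a cyclic AMP response element, and in 6430548M08Rik they mark CACGTG, the E-box of clock and MYC factors. Both strands were searched, and the motif marked in each window was picked from several that matched.
Mt1: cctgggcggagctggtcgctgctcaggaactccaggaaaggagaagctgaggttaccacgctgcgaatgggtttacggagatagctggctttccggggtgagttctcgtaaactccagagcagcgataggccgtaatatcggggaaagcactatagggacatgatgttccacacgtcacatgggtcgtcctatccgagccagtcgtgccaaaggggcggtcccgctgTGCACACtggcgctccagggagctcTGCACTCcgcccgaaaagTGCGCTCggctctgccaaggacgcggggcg
Mt2: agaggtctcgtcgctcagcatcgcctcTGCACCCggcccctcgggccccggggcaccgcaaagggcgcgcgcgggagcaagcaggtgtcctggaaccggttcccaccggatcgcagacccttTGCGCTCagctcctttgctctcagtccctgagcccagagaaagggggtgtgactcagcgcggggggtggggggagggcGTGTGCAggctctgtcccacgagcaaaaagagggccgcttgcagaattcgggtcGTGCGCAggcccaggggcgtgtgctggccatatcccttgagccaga
Rsrp1: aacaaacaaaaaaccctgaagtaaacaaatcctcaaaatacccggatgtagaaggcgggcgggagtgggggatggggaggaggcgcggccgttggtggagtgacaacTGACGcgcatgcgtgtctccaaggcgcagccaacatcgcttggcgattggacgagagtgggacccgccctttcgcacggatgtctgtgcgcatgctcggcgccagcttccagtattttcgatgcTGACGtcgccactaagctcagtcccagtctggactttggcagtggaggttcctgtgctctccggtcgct
6430548M08Rik: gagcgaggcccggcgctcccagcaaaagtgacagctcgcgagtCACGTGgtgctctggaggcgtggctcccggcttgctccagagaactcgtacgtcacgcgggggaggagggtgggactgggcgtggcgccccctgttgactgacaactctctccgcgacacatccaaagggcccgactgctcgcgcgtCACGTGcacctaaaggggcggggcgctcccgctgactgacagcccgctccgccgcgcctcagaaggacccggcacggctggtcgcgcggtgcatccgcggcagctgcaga
The Mt1 window held 3 metal response elements and the Mt2 window 4. Such an element was present in 25.7% of all 32851 promoter windows and in 36% of those of tested genes. It was present in 33.5% of windows of genes with an unadjusted p under 0.05 and the higher level at 6 h, and in 35.8% of those with the lower level. The Rsrp1 window held 2 TGACG cores, present in 20.8% of all windows and 31.5% of those of tested genes. That of 6430548M08Rik held 2 E-boxes, present in 7.15% and 10.3%. Among genes with an unadjusted limma p under 0.05, TGACG was present in 27.6% of windows with the higher level at 6 h and 32.7% with the lower. For the E-box these shares were 8.82% and 11.3%. Other motifs searched also matched. The 6430548M08Rik window held 7 matches to ACGTG or GCGTG, the core bound by hypoxia-inducible factors, of which 4 lay within the E-boxes, and 2 TGACG cores. The Rsrp1 window held 1 such hypoxia core, and Mt1 and Mt2 held 2 each. The hypoxia core was present in 43.8% of all windows and 62.6% of those of tested genes. Rsrp1 also held 1 metal response element, 1 FoxO element (GTAAACA) and 1 CCAAT box. A match describes the letters and is not evidence of binding.

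The metallothioneins, small cysteine-rich proteins that bind zinc and copper and respond to metals and glucocorticoids, stood at several times their 2 h level. Mt2 stood at 130, 91.5 and 88.2 RPKM at 2 h and at 573, 1563 and 592 RPKM at 6 h. Mt1 stood at 98.4, 96.9 and 93 RPKM at 2 h and at 305, 802 and 324 RPKM at 6 h. In both genes the groups did not overlap and replicate 2 at 6 h was far above its group. The log2 difference was 2.99 ± 0.39 for Mt2 and 2.16 ± 0.35 for Mt1, and neither passed (limma adjusted p = 0.134 for each). Without 6 h replicate 2 the differences were smaller, 2.51 and 1.71, while both passed, with adjusted p-values of 0.044 and 0.0217 by limma. Over the other left-out libraries neither passed, and the highest adjusted p was 0.366 for Mt2 and 0.408 for Mt1. Mt1 and Mt2 are close paralogues, and how the authors assigned reads shared between them is not given in the sources used here. In the list of metallothioneins and zinc transporters, 4 of 20 tested members had an unadjusted p under 0.05 with the higher level at 6 h and 1 with the lower. Among them the zinc exporter Slc30a1 stood at 2.3, 2.03 and 1.73 RPKM at 2 h and at 2.88, 3.39 and 2.96 RPKM at 6 h.

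Beside 6430548M08Rik, the 15 named genes of smallest p with the higher level at 6 h did not pass. Each had a limma adjusted p of 0.134. They were picked by p on these same values, and in all of them the groups did not overlap. On recovered reads DESeq2 called all of them but Mir1903, and edgeR called none. Zfand2a, an arsenite-inducible zinc finger protein that associates with the proteasome, stood at 2.55, 2.92 and 2.59 RPKM at 2 h and 5.29, 5.4 and 4.82 RPKM at 6 h. Pitx3, a homeobox factor of muscle and lens, stood at 2.5, 2.27 and 2.39 RPKM and then at 4.24, 4.68 and 4.36 RPKM. Both were near to level within each time. Tfrc, which encodes the receptor for iron-loaded transferrin, had 13.6, 9.25 and 13 RPKM at 2 h and 23.6, 29.5 and 29.6 RPKM at 6 h, a log2 difference of 1.18 ± 0.17. Pnmt, the enzyme that turns noradrenaline into adrenaline and a known glucocorticoid target, had 3.82, 2.76 and 5.27 RPKM and then 12.6, 10.9 and 16.7 RPKM, a log2 difference of 1.66 ± 0.24. Ptpn1, the phosphatase that dampens insulin receptor signalling, had 4.9, 4.89 and 5.17 RPKM and then 10.8, 12.7 and 8.74 RPKM. Each of these 6 h values lay clear of the 2 h values. Cdkn1a, the cell cycle inhibitor p21, had means of 12.7 ± 2.15 and 26.3 ± 3.32 RPKM (SD). Per1, a repressor of the clock that glucocorticoids induce, had means of 13.9 ± 0.88 and 23.5 ± 2.5 RPKM, and Nrip1, a corepressor of oxidative metabolism genes, 2.57 ± 0.55 and 5.93 ± 0.90 RPKM. The junction protein Jup, a catenin of desmosomes, had 23.8 ± 3.06 and 42.7 ± 2.71 RPKM. The remaining names were the adaptor of actin and membranes Mtss1, the secreted protease Htra1, the junction scaffold Amotl2, Fam117b and Mir1903. Their log2 differences lay between 0.87 and 1.16. Htra1 overlaps Fgfr2 on the opposite strand. Mir1903 lies within Nrp1 on the same strand, and its reads cannot be told from those of that gene, whose own log2 difference was 0.15.

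On the lower side, Neat1 and Rsrp1 were followed by 12 genes reported here that did not pass. Their limma adjusted p was again 0.134 each. They too were picked by p, and their groups did not overlap. DESeq2 called all of them and edgeR none. Pde4b, a phosphodiesterase that breaks down cyclic AMP, stood at 10.4, 15.6 and 8.24 RPKM at 2 h and 3.17, 3.7 and 2.48 RPKM at 6 h, a log2 difference of -1.68 ± 0.24. Slc6a8, the creatine transporter, stood at 28.9, 33 and 27.2 RPKM and then at 17.5, 17.3 and 18.3 RPKM. In neither gene did a 6 h library reach the lowest 2 h library. Acvr1, a type I receptor for bone morphogenetic proteins and activins, had means of 3.56 ± 0.40 and 1.74 ± 0.23 RPKM (SD). Vgll2, a cofactor of TEAD factors in muscle, had 59.2 ± 11 and 30.5 ± 2.18 RPKM. Mettl3, the enzyme that writes N6-methyladenosine on RNA, had 6.92 ± 0.37 and 4.26 ± 0.33 RPKM and overlaps Tox4 on the opposite strand. Tmem100, a membrane protein downstream of endothelial bone morphogenetic protein signalling, had 9.78 ± 0.71 and 4.24 ± 1.16 RPKM. For Banp, a nuclear matrix protein that overlaps Gm20388 as 6430548M08Rik does, the means were 4.15 ± 1.25 and 1.38 ± 0.24 RPKM. The log2 differences of Clec2d, Actr6, Crk, B3galnt2 and Cebpg lay between -1.09 and -0.60. B3galnt2 overlaps Ggps1 and Tbce on the opposite strand.

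**Figure D4:**
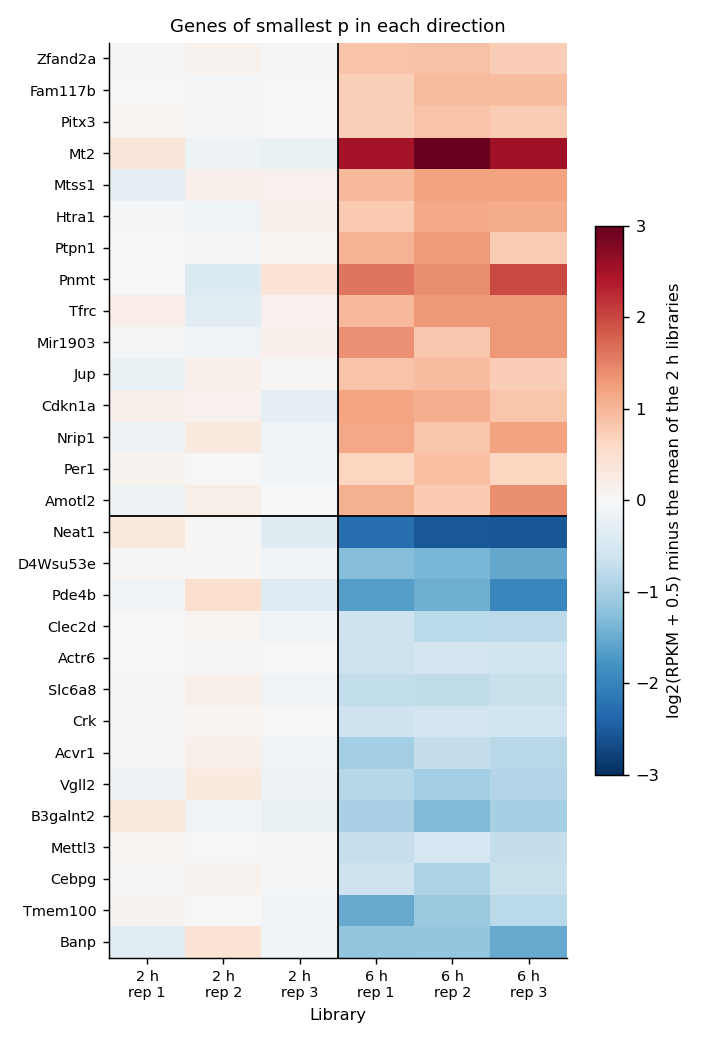
Level of the 15 named genes with the higher and the 14 reported with the lower level at 6 h in each library, as log2(RPKM + 0.5) minus the mean of the 2 h libraries; Neat1 and D4Wsu53e (Rsrp1) passed the test and the others did not. In every row the 3 libraries at 6 h lie on the same side of the 3 at 2 h. This follows largely from picking the rows by p on these same values, so it adds no support. Of the 13260 tested genes, 3004 met this condition (22.7%).

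The pathway lists are given by counts of members with an unadjusted p under 0.05 and by the median log2 difference. Of all genes, 9.22% had such a p with the higher and 5.41% with the lower level at 6 h, and the median was 0.046. The mean was higher at 6 h for 7616 of the 13260 genes and lower for 5639. Apart from Neat1, no member of the 28 pathway lists passed limma's adjusted threshold. Of the 718 distinct members tested, edgeR called Neat1 and no other, whereas DESeq2 called 81 (11.3%, against 5.27% of all genes), 43 with the higher and 38 with the lower level at 6 h. The members were listed with earlier results known, so nothing is read from that share. For the same reason the counts and medians of the lists describe their members and do not test for an excess.

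The glucocorticoid-responsive genes were split. Of 31 tested members, 10 had the higher and 7 the lower level at 6 h with an unadjusted p under 0.05, and the median log2 difference was 0.27, between 0.26 and 0.28 with any library left out. On the higher side, besides Mt1, Mt2, Pnmt, Per1 and Cdkn1a, Angptl4, a secreted inhibitor of lipoprotein lipase, stood at 9.48, 6.46 and 5.42 RPKM at 2 h and at 24.2, 21.5 and 14.5 RPKM at 6 h. Angptl4 overlaps H2-Eb1 on the opposite strand, whose own log2 difference was 0.67. Pik3r1, the regulatory subunit of PI3-kinase, stood at 8.25, 11.5 and 10.2 RPKM and then at 21.6, 16.4 and 21.3 RPKM. In both the groups did not overlap (limma adjusted p = 0.139 and 0.136). On the lower side, Tsc22d3, which encodes the glucocorticoid-induced leucine zipper protein, stood at 125, 148 and 156 RPKM and then at 90, 94.4 and 78.8 RPKM. The transcription factor Cebpd stood at 53.7, 42.7 and 43.4 RPKM and then at 24.4, 30.2 and 34.5 RPKM. Known targets of the same hormone thus lay on both sides of 2 h.

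Genes of muscle atrophy and of FoxO factors were split evenly, with 6 of 34 on each side and a median of -0.04. Fbxo32, the muscle ubiquitin ligase atrogin-1, stood at 148, 221 and 109 RPKM at 2 h and at 63.4, 60.7 and 91.4 RPKM at 6 h. The groups did not overlap, and the log2 difference of -1.11 ± 0.27 did not pass (limma adjusted p = 0.205). The Asb ligase subunits read the same way, Asb2 with 149, 205 and 138 and then 97.3, 86.6 and 98.2 RPKM, and Asb15 with 24.9, 59.9 and 35.8 and then 20.2, 10.4 and 18.5 RPKM. Myostatin (Mstn), the growth inhibitor secreted by muscle, had 12.1, 16.1 and 17.2 and then 11.6, 10.2 and 7.93 RPKM. All of these had no library at 6 h above the lowest at 2 h. Traf6, a ubiquitin ligase adaptor of atrophy signalling, and Fbxo21 were on the other side, with Traf6 at 2.46, 2.06 and 1.93 and then 3.54, 3.44 and 3.87 RPKM. Of 50 insulin and PI3K-Akt genes, 7 had the higher and 6 the lower level at an unadjusted p under 0.05, with a median of 0.02. Pik3ip1, an inhibitor of PI3-kinase, stood at 20.6, 24.5 and 22.5 and then at 16, 15.2 and 14.1 RPKM, and Eif4ebp1, the translation repressor released from eIF4E by mTORC1, at 64.2, 63.7 and 57.1 and then at 44.4, 48.1 and 44 RPKM. Among 27 myostatin, activin and Smad genes, 2 lay on each side with a median of 0.07, and Smad1, which carries bone morphogenetic protein signals, read 2.9, 2.35 and 2.46 and then 3.72, 4.67 and 3.89 RPKM.

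Genes of fat use lay mostly on the higher side among members of small p. Of 34 fatty acid oxidation and uncoupling genes, 12 had the higher level at 6 h and 0 the lower at an unadjusted p under 0.05, and 31 had the higher mean. The median was 0.31, but 0.13 without 6 h replicate 3, the library with the high slow fibre genes. Acsl1, which activates long-chain fatty acids, stood at 55.4, 49.5 and 53 RPKM at 2 h and 77.5, 84.1 and 93.8 RPKM at 6 h. Ucp3, the uncoupling protein of muscle mitochondria, stood at 69.7, 127 and 109 and then at 180, 159 and 184 RPKM. In these and in Acot2, a mitochondrial thioesterase, the groups did not overlap. Pdk4, the kinase that shuts pyruvate out of oxidation, stood at 516, 736 and 623 RPKM at 2 h and at 756, 864 and 821 RPKM at 6 h. Of 31 triglyceride storage and cholesterol genes, 9 lay on the higher and 1 on the lower side, with a median of 0.26. Plin5, the lipid droplet coat protein of oxidative tissue, stood at 7.61, 10 and 12.3 and then at 23.6, 21 and 31.4 RPKM, a log2 difference of 1.31 ± 0.21 (limma adjusted p = 0.134). Abca1, the cholesterol exporter, stood at 2.05, 2.69 and 1.95 and then at 5.96, 3.39 and 5.59 RPKM, and Pnpla2, the lipase that opens triglyceride breakdown, at 127, 144 and 158 and then at 177, 191 and 232 RPKM. Adipocyte markers were highest in replicate 1 at 6 h, where Cfd, the fat cell protease adipsin, reached 223 RPKM against 64.5 and 66.8 in the other 6 h libraries. The part of fat cells in the storage genes was not tested. Of 47 respiratory chain subunits, 3 had the higher level and 0 the lower at an unadjusted p under 0.05, although 44 had the higher mean. Their median of 0.19 was 0.09 without 6 h replicate 3. Cycs, cytochrome c, had the smallest p, with 128, 142 and 162 and then 172, 193 and 215 RPKM.

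Targets of hypoxia-inducible factors had 5 of 38 members on each side at an unadjusted p under 0.05. The mean was higher at 6 h for 26 and lower for 12, and the median was 0.19. Centred per gene over the 6 libraries, the mean log2 level of the list was 0.314 in 6 h replicate 2. In the other 6 h libraries it was -0.011 and 0.001, and at 2 h it was -0.026, -0.119 and -0.158. Besides Tfrc, Pfkfb4, an isoform of the enzyme that makes the glycolytic activator fructose-2,6-bisphosphate, stood at 10.8, 16.2 and 19.5 RPKM at 2 h and at 29.6, 26.7 and 23.3 RPKM at 6 h. Kdm3a, a histone demethylase, stood at 2.44, 2.83 and 2.37 and then at 3.46, 3.48 and 3.99 RPKM. Egln3, an oxygen sensor that marks the factors for breakdown, lay on the lower side with 34.5, 38.5 and 28.2 and then 21.6, 25.9 and 20.8 RPKM. In none of these did the times overlap, and all had limma adjusted p-values between 0.206 and 0.213. Of 29 glycolysis and glycogen enzymes, 3 lay on each side with a median of -0.02. Pygm, glycogen phosphorylase of muscle, stood at 2118, 2401 and 2446 and then at 1844, 1841 and 1960 RPKM, while Tpi1, which overlaps Spsb2, stood at 1020, 1079 and 1331 and then at 1367, 1618 and 1508 RPKM.

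Stress response lists differed in their counts. Of 32 heat shock proteins and chaperones, 6 lay on the higher side and 0 on the lower, and the median of 0.11 was -0.09 without 6 h replicate 2. In that library the small heat shock protein Hspb7 had 419 RPKM against 211 and 227 in the other 6 h libraries and 132 to 177 at 2 h. Of 27 unfolded protein and integrated stress response genes, 3 lay on the higher and 2 on the lower side, and the median of 0.12 was -0.11 without 6 h replicate 2. Within this list Chac1, a glutathione-degrading enzyme downstream of ATF4, stood at 66.3, 90.3 and 54.6 RPKM at 2 h and at 14.7, 14.7 and 30.5 RPKM at 6 h. Its groups did not overlap, and the log2 difference of -1.85 ± 0.31 did not pass (limma adjusted p = 0.136). Chac1 overlaps Spint1 on the same strand. Ppp1r15a, which restores translation by dephosphorylating eIF2, and Psat1, a serine synthesis enzyme, lay on the other side, with Ppp1r15a at 9.34, 7.48 and 7.26 and then 11.3, 17.5 and 16 RPKM. Of 30 antioxidant genes, 2 lay on each side with a median of 0.05. Nfe2l2, which encodes the antioxidant regulator NRF2, stood at 9.35, 14 and 11.3 and then at 5.93, 6.47 and 6.18 RPKM, while Txnip, the inhibitor of thioredoxin, stood at 326, 294 and 223 and then at 390, 497 and 434 RPKM. In the p53 pathway list, 4 of 19 lay on the higher and 1 on the lower side with a median of 0.08. Trp53inp1 stood at 3.98, 3.61 and 2.78 and then at 6.57, 7.3 and 5.99 RPKM, whereas Trp53, the gene of p53 itself, stood at 3.88, 3.49 and 3.96 and then at 2.14, 3.16 and 2.38 RPKM.

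RNA-processing genes beside Neat1 and Rsrp1 lay on both sides. Of 22 SR splicing factors and Clk kinases, 3 had the higher and 4 the lower level at an unadjusted p under 0.05, with a median of 0.07. Srsf3, an SR protein that controls its own splicing, stood at 22.5, 22.5 and 20.8 RPKM at 2 h and at 32, 36.4 and 30.8 RPKM at 6 h. The kinases that phosphorylate SR proteins read the other way, with Clk3 at 7.1, 6.28 and 5.9 and then 4.59, 4.94 and 4.71 RPKM and Clk4 at 11.3, 9.68 and 8.4 and then 7.39, 7.08 and 6.94 RPKM. Neither kinase had a 6 h library within the 2 h range, and Clk3 overlaps Edc3. Of the cold-inducible RNA-binding proteins, Rbm3 stood at 54.5, 36.6 and 42.7 and then at 68, 97.4 and 62.2 RPKM, while for Cirbp, at 44.8, 22.7 and 25.7 and then 48.5, 44.2 and 43.2 RPKM, the times overlapped. Of 64 cytosolic ribosomal proteins, 0 reached an unadjusted p under 0.05 in limma on either side. Their median was -0.10, and 0.03 without 2 h replicate 1.

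Genes of the immediate early response, not all of them transcription factors, lay more often below than above their 2 h level among the members of small p. Of 29 immediate early factors, 4 had the lower and 1 the higher level at an unadjusted p under 0.05, and the median of -0.08 was 0.00 without 6 h replicate 3. Jun stood at 25.7, 21.6 and 23.3 RPKM at 2 h and at 15.1, 17.2 and 14 RPKM at 6 h, and Zfp36, which destabilises inflammatory mRNAs, at 13, 8.32 and 9.55 and then at 5.53, 7.84 and 5.63 RPKM. Fosl2 was the member on the higher side, with 1.65, 1.67 and 1.48 and then 2.73, 3.17 and 2.32 RPKM. Of 24 cyclic AMP signalling genes, 3 lay on each side with a median of -0.04. With Pde4b on the lower side, Pde7b, another cyclic AMP phosphodiesterase, stood at 4.14, 4.67 and 4.32 and then at 6.17, 6.63 and 7.59 RPKM, and the kinase Sik1 at 2.63, 3.44 and 2 and then at 4.43, 5.02 and 3.6 RPKM. Of 22 clock genes, 2 lay on the higher side, among them Per1, and 3 on the lower, among them its partner repressor Cry1 at 4.57, 4.76 and 4.2 and then 3.72, 2.95 and 3.74 RPKM. The clock list's median was 0.07, and -0.06 without 2 h replicate 3. Of 15 myogenic factors, 3 lay on the higher and 4 on the lower side, with a median of -0.01. Myod1, a master regulator of the muscle lineage, stood at 3.18, 5.03 and 4.5 and then at 2.1, 2.44 and 1.86 RPKM and Myf6, a related factor of mature fibres, at 56.9, 56.9 and 52.8 and then at 35.3, 45.2 and 31.3 RPKM. In both of these myogenic genes the 6 h libraries lay below the 2 h libraries.

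The remaining lists held few members with a small p. Amino acid transporters had 2 of 18 on the higher and 3 on the lower side, with a median of 0.09. Besides Slc6a8, the arginine transporter Slc7a2 stood at 6.41, 7.55 and 6.8 RPKM at 2 h and at 5.34, 3.35 and 3.86 RPKM at 6 h, and it overlaps Mtus1. Channels and calcium handling genes had 2 of 25 on each side, with a median of -0.11. Atp2a1, the calcium pump of fast fibres, stood at 7435, 9495 and 8735 and then at 6706, 6017 and 6573 RPKM and overlaps Rabep2. Vascular signalling genes had 2 of 26 on each side with a median of 0.09. The VEGF receptor Kdr was the one of smallest p, with 2.7, 2.55 and 1.72 and then 3.68, 4.04 and 5.87 RPKM, while the angiopoietin receptor Tek read 4.27, 4.3 and 3.38 and then 2.39, 3.35 and 2.93 RPKM. Inflammatory genes had 2 of 19 on each side and a median of 0.02, which ran from -0.16 without 6 h replicate 2 to 0.24 without 2 h replicate 1. Lcn2, an iron-sequestering protein of inflammation, was the widest of them, with 2.34, 1.62 and 2.02 and then 6.99, 26 and 5.85 RPKM, the highest value in replicate 2, where the macrophage and matrix sums were also highest. Interferon-induced genes had 0 of 29 on the higher and 1 on the lower side by unadjusted limma p, and their median of -0.15 was 0.27 without 2 h replicate 1. None of 11 polyamine genes reached an unadjusted p under 0.05 in limma, and their median was 0.10.

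**Figure D5:**
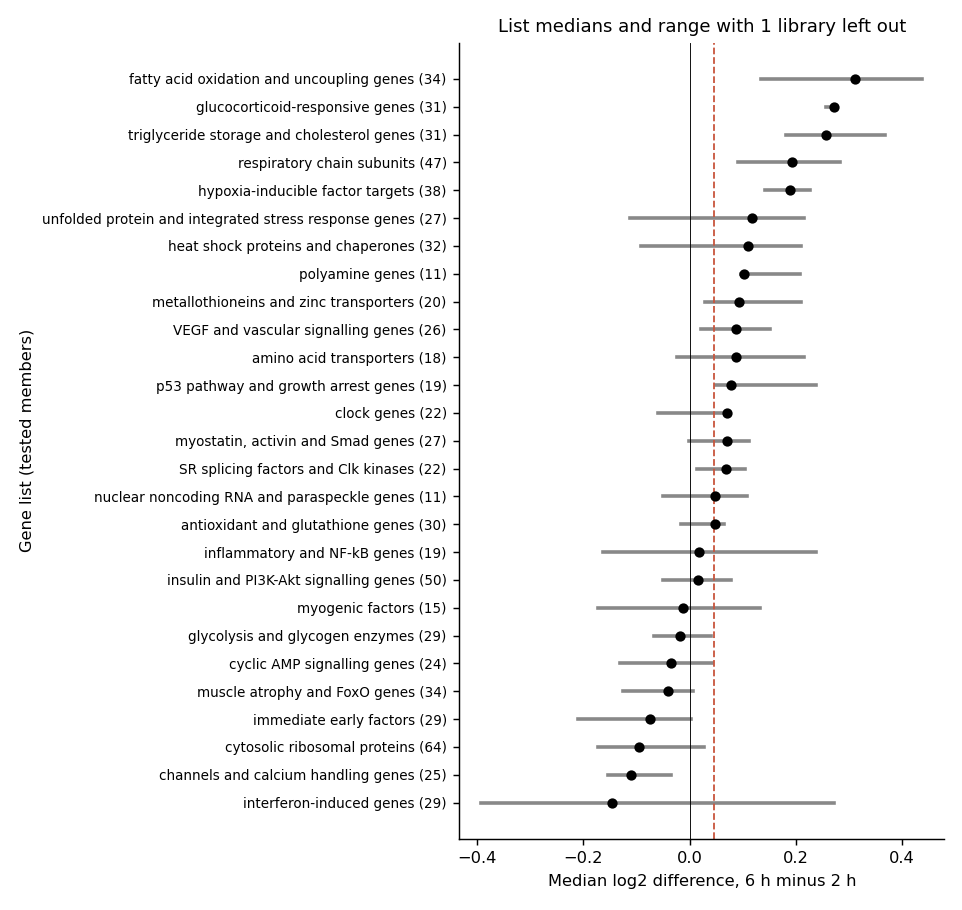
Median log2 difference (6 h minus 2 h) of the tested members of each pathway list (black points, number of members in brackets), with the range of that median when each library is left out in turn (grey bars) and the median of all 13260 genes (dashed line, 0.046). The glucocorticoid list has the narrow range of 0.26 to 0.28, whereas those of interferon-induced, inflammatory and heat shock genes cross 0. The sign of the median changed with 1 library left out in 16 of the 27 lists drawn.

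Several lists of cell type markers also stood higher at 6 h, and in some of them the median rested on 1 library. None of the 138 distinct marker genes tested passed the adjusted threshold of limma or edgeR, while DESeq2 called 16, all with the higher level at 6 h (11.6%, against 5.27% of all genes in either direction). The marker lists too were chosen with earlier results known, so no excess is read from that share or from the counts below. Of 12 slow fibre genes, 9 had the higher level at 6 h at an unadjusted p under 0.05, and the median log2 difference of 2.11 was 1.15 without 6 h replicate 3. Tnnt1, the slow troponin T, stood at 28.6, 31.1 and 18.5 RPKM at 2 h and at 59.6, 213 and 1068 RPKM at 6 h, and Myh7, the slow myosin, at 1.88, 1.17 and 0.935 and then at 1.9, 29.2 and 170 RPKM. The slow fibre values thus spanned a far wider range among the 6 h libraries than between the 2 h libraries. Casq2, the calsequestrin of slow and cardiac fibres, was closer to even among the 6 h libraries, with 8.73, 8.6 and 8.47 and then 16.2, 15.1 and 27.5 RPKM. Of 15 fast fibre genes, 1 lay on each side, with a median of -0.11. Of 24 matrix genes, 11 lay on the higher and 0 on the lower side, with a median of 1.03 and of 0.43 without 6 h replicate 2. Thbs2, a matrix glycoprotein, stood at 2.34, 1.8 and 2.09 and then at 2.89, 5.63 and 3.21 RPKM. The medians of 18 macrophage genes (0.73) and 12 nerve genes (0.78) were -0.03 without 6 h replicate 2 and 0.01 without 6 h replicate 1.

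All 5 erythroid genes had the higher level at 6 h at an unadjusted p under 0.05, with a median of 1.82 and of 1.10 without 2 h replicate 1. Alas2, the first enzyme of heme synthesis in red cells, stood at 0.584, 2.64 and 1.96 RPKM at 2 h and at 10.4, 5.36 and 4.47 RPKM at 6 h, and it overlaps Apex2. The alpha globin gene Hba-a1 stood at 138, 716 and 563 and then at 2240, 1176 and 953 RPKM. The 2 h and 6 h libraries did not overlap for any of these genes, and near-identical globin copies may share reads. Of 14 endothelial genes, 6 lay on the higher and 1 on the lower side, with a median of 0.36. Centred per gene, the mean log2 level of that list was -0.003, -0.02 and -0.344 at 2 h. At 6 h it was -0.02, 0.223 and 0.165, so the times overlapped. Cdh5, the cadherin of endothelial junctions, stood at 11.5, 10.9 and 8.81 and then at 12.9, 15.9 and 16.1 RPKM. Of 8 adipocyte genes, 5 lay on the higher side, and the median of 1.29 was 0.72 without 6 h replicate 1. Smooth muscle genes had 1 of 10 on the higher side and a median of 0.00, and satellite cell genes had 0 of 6 on either side and a median of -0.14. Neutrophil genes had 0 of 5 and a median of -0.29 that was 0.17 without 2 h replicate 1, the 2 tested lymphocyte genes a median of 0.33, and the 7 liver and choroid plexus genes 1 on the lower side, Ttr, and a median of -1.19 that was 0.02 without 2 h replicate 2.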

How the data were processed

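Plantaris RNA was made into paired-end TruSeq libraries, and each library's group and replicate number come from its title. FastQC, SAMtools, bedtools, Bowtie2 and TopHat2 (no versions) and build mm9 are listed in the submitters' processing notes. How reads were counted per gene, and whether by strand, is not given in the sources used here, so overlapping genes cannot be separated. Not every overlap is given with a gene's values. Slc30a1, Pik3r1, Pik3ip1, Txnip, Jun and Rbm3 are among those that also overlap a gene on the opposite strand. The deposited table gives RPKM per gene and library as made by the authors, a unit recognised from the values, and, per gene, the highest raw read count in any library. The authors' deposited p-values and fold values against control were not used. Coordinates are those of the table, on mm9.

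Values of the 6 libraries were transformed to log2(RPKM + 0.5) and fitted by group means alone in limma 3.58.1 (R 4.3.3), with variance following a trend on the mean. Adjusted p-values are Benjamini-Hochberg values over all 13260 genes, with a threshold of 0.05. A fold change on this scale understates that of low genes. For a single gene an exact permutation test of 3 libraries against 3 cannot go below p = 0.1. RPKM steps gave whole reads within 0.1 read for 100% of 36465 values checked, all below 500 reads. The tests of edgeR 4.0.16 (quasi-likelihood) and DESeq2 1.42.0 were run on these reads. On simulated data the limma fit of 13260 genes recovered 61% of genes changed 2-fold and 87% of those changed 4-fold, and called 6 unchanged genes. The simulation drew normal noise for each gene independently and held no library that stood apart across many genes. The real libraries did, so these shares do not give the recovery in the real data.

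The comparison, the 28 pathway lists and the 13 marker lists were chosen with earlier results of these data known. Named were the 15 genes of largest change in each direction, the called genes by level and the 4 members of smallest p per list. The 15 were called genes with symbols whose groups did not overlap, without predicted genes, filled up by smallest p. Other list members were chosen after their values were seen, and 2 genes that the rule names are not reported here. Alternatives covered pseudocount, filter, scaling, variance model, library weights, adding the controls, a block for replicate number, a minimum fold and leaving out single libraries. Leaving out libraries in edgeR was chosen after seeing the data. Chi-square per gene between libraries was at least 162.0, so none was treated as a duplicate. Intervals for counting error were not used, and the spread between libraries stands for the error.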

Additional observations from a re-analysis of the deposited data

How the results depend on the processing

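The 3 calls of limma, 1 higher and 2 lower at 6 h, were the same genes with a pseudocount of 0.1 or 1, no filter, a minimum of 1 RPKM, median-ratio or quantile scaling, a robust prior and a fold threshold of 1.2. Library weights gave 6 calls (3 higher), a variance shared with the controls in a fit of all 9 libraries 19 (9 higher, 10 lower), and both kept the 3. Without the mean-variance trend there were 0 calls in limma (0 higher, 0 lower), with 1900 genes at an unadjusted p under 0.05. With each library left out in turn, limma called between 0 and 2 genes, between 0 and 2 higher and between 0 and 1 lower, and edgeR between 0 and 8 (7 without 6 h replicate 2, 8 without 6 h replicate 3), between 0 and 5 higher and between 0 and 5 lower. On recovered reads of all 6 libraries, edgeR called 2 genes, 0 higher, and DESeq2 called 699, 391 higher and 308 lower. The cause of these differences in number was not tested. The log2 difference of Aldoa, -0.24, became 0.0 under quantile normalization. With the replicate number as a block, limma called 0 genes (0 higher, 0 lower), with 1591 at an unadjusted p under 0.05. The labels do not say whether the numbers pair the samples. Deviations of libraries with the same number correlated at -0.107, -0.117 and -0.014. With so few libraries these values cannot exclude a shared day or batch.

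The median of all genes ran from -0.022 under quantile normalization to 0.077 without 2 h replicate 1. With 3 libraries per time and 72703027 reads in the shallowest, a difference that misses the threshold does not show equal levels. Each called gene kept its direction under every alternative listed here.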
